A study of Saccharomyces cerevisiae with 9 samples.

Results

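The genes described here belong to 4 repeated gene families of budding yeast, most of whose copies sit next to chromosome ends: PAU, COS, YRF1 and AAD. They were chosen by gene symbol, which gave 50 of the 7122 genes in the table: 23 PAU, 12 COS, 8 YRF1 and 7 AAD genes. The families were put together with earlier results of these data known. Selected on measured values was the omission of PAU15, which lies on a block of chromosome IX whose RNA was higher in the dgk1Δ libraries. Its counts were 2, 2 and 0 in WT, 3, 2 and 0 in pah1Δ and 6, 3 and 4 in dgk1Δ. Of the 50 genes, 44 lay within 30 kb of a chromosome end, on 24 of the 32 ends.

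Poly(A) RNA was sequenced from a prototrophic CEN.PK strain of Saccharomyces cerevisiae in 3 genotypes: wild type (WT), pah1Δ, which lacks PAH1, and dgk1Δ, which lacks DGK1. Each genotype had 3 libraries, all from log-phase cells grown in minimal synthetic medium with 2% glucose. The product of PAH1 dephosphorylates phosphatidate to diacylglycerol, and that of DGK1, a diacylglycerol kinase, catalyses the reverse step. The labels do not say whether the 3 replicates were separate cultures or clones, so a p-value reflects only how far these libraries spread, which may be technical.

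Subtelomeres are the stretches inside the telomere repeats, where silencing proteins can lower transcription and where gene families spread by recombination between ends. PAU genes encode seripauperins, small cell wall mannoproteins known for their induction without oxygen. COS genes encode membrane proteins of the endosome that help to sort plasma membrane proteins to the vacuole for turnover. YRF1 genes encode a helicase within the Y′ element, a repeat that is amplified in cells surviving without telomerase. AAD genes encode putative aryl-alcohol dehydrogenases, similar to a fungal enzyme that acts on lignin breakdown products.

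The copies differ in how far a read can be assigned to 1 of them. A window of 100 bases that occurs nowhere else in the R64 reference genome was taken as unique. In 15 of the 50 genes no such window existed, and in 28 over 50% of the windows were unique. YRF1 genes had at most 3.9% unique windows, and 4 pairs among them were identical over the whole gene. COS2 and COS3 were identical, as were 3 pairs of PAU genes. AAD genes had 85.3% to 100% unique windows. The sources used here do not give the treatment of reads that match several copies, so values of near-identical copies are uncertain. R64 is the genome of another strain, S288C, and which copies CEN.PK carries was not tested.

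The starts of the PAU genes show how close copies are and where a read could tell them apart. Bases 1 to 120 of the gene are shown, 5′ to 3′ on the coding strand, from the RefSeq R64 genome. For PAU4 and PAU2, capitals mark letters that differ from PAU10. For PAU23 and PAU3, capitals mark letters that differ from PAU17.
PAU10 (chrIV:1523249-1523368, plus strand): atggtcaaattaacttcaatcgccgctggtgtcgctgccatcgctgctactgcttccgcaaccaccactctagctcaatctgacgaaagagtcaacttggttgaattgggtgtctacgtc
PAU4 (chrXII:1062919-1063038, plus strand): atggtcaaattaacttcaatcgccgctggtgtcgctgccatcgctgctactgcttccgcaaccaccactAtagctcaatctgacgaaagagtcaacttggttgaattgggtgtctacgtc
PAU2 (chrV:63728-63847, plus strand): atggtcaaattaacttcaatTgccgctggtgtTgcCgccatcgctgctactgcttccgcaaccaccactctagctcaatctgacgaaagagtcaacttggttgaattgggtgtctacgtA
PAU17 (chrXII:94747-94866, plus strand): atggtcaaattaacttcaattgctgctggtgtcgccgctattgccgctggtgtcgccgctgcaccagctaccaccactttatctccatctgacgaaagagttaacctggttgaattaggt
PAU23 (chrXII:222940-223059, minus strand): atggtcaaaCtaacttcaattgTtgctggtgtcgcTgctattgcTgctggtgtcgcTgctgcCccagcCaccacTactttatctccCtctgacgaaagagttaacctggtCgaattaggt
PAU3 (chrIII:307801-307920, plus strand): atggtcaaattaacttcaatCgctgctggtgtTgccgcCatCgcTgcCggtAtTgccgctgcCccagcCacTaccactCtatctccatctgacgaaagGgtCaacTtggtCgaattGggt
PAU4 and PAU2 differed from PAU10 at 1 and 4 of these 120 bases. PAU23 and PAU3 differed from PAU17 at 10 and 17.

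The COS genes shared a short stretch before their start. The 50 bases before the start of the gene and its first 10 bases are shown, with AGGGG or its complement CCCCT in capitals, the core of the stress response element bound by Msn2 and Msn4. COS2, COS3, COS5 and COS7 have the same letters here as COS1.
COS1 (chrXIV:8280-8339, plus strand): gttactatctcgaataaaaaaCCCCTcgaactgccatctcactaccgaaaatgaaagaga
COS4 (chrVI:6376-6435, plus strand): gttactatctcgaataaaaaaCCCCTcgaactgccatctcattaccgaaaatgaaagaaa
COS6 (chrVII:1082720-1082779, minus strand): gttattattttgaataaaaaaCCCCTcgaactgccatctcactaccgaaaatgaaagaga
COS8 (chrVIII:6351-6410, plus strand): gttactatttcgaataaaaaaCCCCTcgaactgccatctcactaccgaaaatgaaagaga
COS9 (chrXI:14435-14494, plus strand): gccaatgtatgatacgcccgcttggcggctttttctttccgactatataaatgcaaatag
COS10 (chrXIV:779866-779925, plus strand): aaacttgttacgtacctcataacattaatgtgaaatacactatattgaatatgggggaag
COS12 (chrVII:2740-2799, plus strand): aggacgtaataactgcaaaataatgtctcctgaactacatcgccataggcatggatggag
In COS1 to COS8 the CCCCT began 29 bases before the gene start, inside a stretch that is nearly the same in all 8. COS9, COS10 and COS12 have neither word in the stretch shown.

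Total counts per library ranged from 9205454 to 12795803. PAH1 had 0 counts in the 3 pah1Δ libraries, and DGK1 had 1, 2 and 1 in the dgk1Δ libraries. WT replicate 1 differed from WT replicates 2 and 3 by a chi-square per degree of freedom over genes of 53.6 and 39.9, against 3.55 between the latter pair. In WT replicate 1 and pah1Δ replicate 2, log2 deviations from the group mean fell with gene length (Spearman correlations across 5304 genes of -0.745 and -0.682, a description). Results that rest on WT replicate 1 are given with and without it.

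Of the 50 genes, 26 had enough reads to be tested: 11 COS, 6 PAU, 5 AAD and 4 YRF1. The filter asks for reads in at least 1 group's number of libraries, and 23 of the 26 would also have passed without the pah1Δ libraries. The others were COS3, YRF1-3 and YRF1-7. The 24 untested genes had at most 17 counts in any library. Where a library has 0 counts, counting error alone leaves room for up to 3. PAU16, on the left end of chromosome XI, had 0 counts in all 9.

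Levels between genes were compared per length, in the FPKM values that the authors deposited. COS6 was highest in WT at 136.5 ± 4.77 FPKM (SD, n = 3), followed by COS7 at 56.8 ± 2.77 and COS1 at 48.3 ± 1.89. Next came PAU7 at 30.1 ± 7.24, AAD16 at 26.9 ± 4.596, AAD10 at 26.5 ± 2.12, COS9 at 24.5 ± 1.33 and COS5 at 22.4 ± 4.80 FPKM. Among these 5, neighbours in the order did not differ beyond their SDs. AAD14 stood at 19.4 ± 0.996 FPKM, COS10 at 10.8 ± 4.71 and PAU2 at 5.77 ± 1.64.

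**Figure D1:**
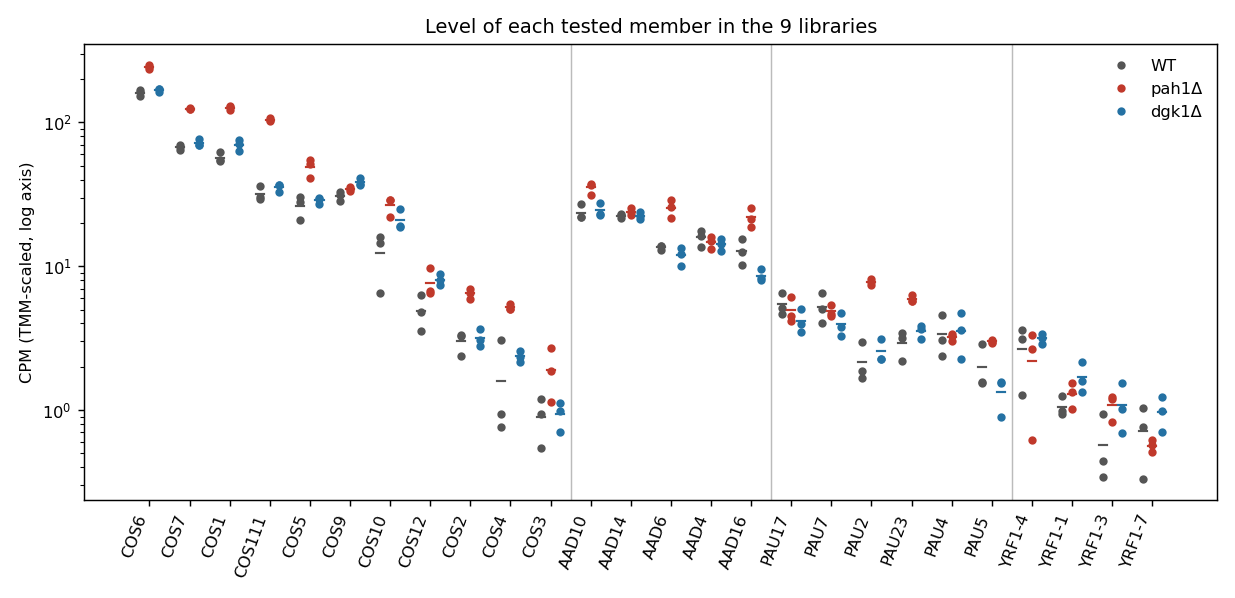
Level of the 26 tested genes in the 9 libraries, in CPM scaled by TMM (y axis, log scale), 1 column per gene, ordered by family and mean level. Points are libraries and short lines group means. COS111, COS1, COS7 and COS6 have their pah1Δ points above those of the other genotypes.

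In pah1Δ against WT, RNA of 13 of the 26 tested genes rose and none fell, with a median log2 fold change of 0.70. Over all 6150 genes tested, 16.6% rose, 12.6% fell, and the median was 0.00. The libraries of pah1Δ lay above all WT libraries in 16 of the 26, against 22.0% of all genes. The genes that rose were 8 COS, 3 AAD and 2 PAU genes. A gene was called at an adjusted p under 0.05 in edgeR's quasi-likelihood test, with the adjustment over all genes. In bulk RNA, more RNA per cell and more cells that express a gene cannot be told apart.

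COS genes made up the largest share of the calls, with 8 of 11 higher and a median log2 fold change of 1.04. COS6 (YGR295C, chrVII:1081584-1082729, minus strand, R64), the most abundant, had 84.5% unique windows. It held 168, 162 and 153 CPM (counts per library total, with TMM scaling) in WT and 252, 244 and 237 in pah1Δ. All 3 pah1Δ libraries were above all WT libraries. It rose by 0.60 on the log2 scale (SE 0.07, edgeR adjusted p = 6.84e-05), a 1.52-fold rise of the mean. The dgk1Δ libraries, at 163, 172 and 170 CPM, overlapped WT.

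COS7 (YDL248W, chrIV:1802-2953, plus strand), with 52.1% unique windows, had 67.2, 64.8 and 69.6 CPM in WT and 123, 126 and 123 CPM in pah1Δ. It rose by 0.88 (SE 0.07, edgeR adjusted p = 1.19e-05), and its groups did not overlap. COS1 (YNL336W, chrXIV:8330-9475, plus strand), with 49.4% unique windows, had 61.9, 54.8 and 53.9 CPM in WT and 122, 130 and 128 CPM in pah1Δ. It rose by 1.16 (SE 0.09, adjusted p = 6.2e-06), and every pah1Δ library was above every WT library. COS5 (YJR161C, chrX:742848-743999, minus strand), with 42.4% unique windows, had 20.9, 28.1 and 30.1 CPM in WT and 51.5, 41.1 and 55.1 CPM in pah1Δ, with no overlap, a rise of 0.91 (SE 0.15, edgeR adjusted p = 0.00108).

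COS10 (YNR075W, chrXIV:779916-781040, plus strand) had no near copy: its identity to COS1 to COS8 was 61.3% to 63.2%, and all its 100-base windows were unique. Its level was 6.56, 15.9 and 14.6 CPM in WT, 28.8, 22.2 and 29.1 CPM in pah1Δ, and 18.7, 25.1 and 19.1 CPM in dgk1Δ. WT replicate 1 was low, and the libraries of both deletion strains lay above all 3 WT libraries. In pah1Δ COS10 rose by 1.13 (SE 0.27, edgeR adjusted p = 0.00977). Without WT replicate 1 the rise was 0.81 (adjusted p = 0.00283).

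COS2 and COS3 are identical in sequence, so reads within these genes cannot be told apart by their letters. COS2 had 3.32, 2.39 and 3.29 CPM in WT and 5.96, 6.91 and 6.54 CPM in pah1Δ, a rise of 1.10 (SE 0.20, edgeR adjusted p = 0.00256) with no overlap. COS3 had 1.19, 0.934 and 0.549 CPM in WT and 1.87, 2.68 and 1.14 CPM in pah1Δ, which overlapped. Its log2 fold change of 1.04 did not pass (SE 0.41, adjusted p = 0.0797), and it passed without WT replicate 1 (1.32, adjusted p = 0.0442). The deposited counts of this identical pair differed, 403 against 118 over the 9 libraries. How reads were divided between them is not known, so the separate values of COS2 and COS3 are uncertain.

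COS4, at the left end of chromosome VI, had 3.07, 0.934 and 0.768 CPM in WT, so WT replicate 1 was the high one. The pah1Δ libraries, at 5.45, 5.05 and 5.03 CPM, were above all of them. COS4 rose by 1.63 (SE 0.39, edgeR adjusted p = 0.00977), and by 2.59 without WT replicate 1 (adjusted p = 2.65e-05). In total 54.4% of its 100-base windows were unique.

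COS9, COS12 and COS8 were not called. COS9, at the left end of chromosome XI, had 32.8, 31.1 and 28.4 CPM in WT and 33.5, 34.4 and 35.8 CPM in pah1Δ, 0.16 higher (SE 0.09, edgeR adjusted p = 0.201). The pah1Δ libraries lay above those of WT, by little. COS12 had 6.3, 3.53 and 4.83 CPM in WT and 6.55, 9.69 and 6.73 CPM in pah1Δ (0.63, adjusted p = 0.0698), and passed without WT replicate 1 (0.87, adjusted p = 0.0124). COS8, in which 99.8% of the 100-base windows were unique, had 17 counts over the 9 libraries and was not tested.

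COS111 matched the COS symbol but is not of this family: it lies 181 kb from an end on chromosome II, and its identity to COS1 to COS8 was 37.5% to 37.8%. It is known for resistance to the antifungal agent ciclopirox olamine. Its level was 29.2, 30.5 and 35.9 CPM in WT and 104, 107 and 103 CPM in pah1Δ, a rise of 1.72 (SE 0.09, edgeR adjusted p = 6.34e-07). Without it, 7 of 10 tested COS genes rose.

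**Figure D2:**
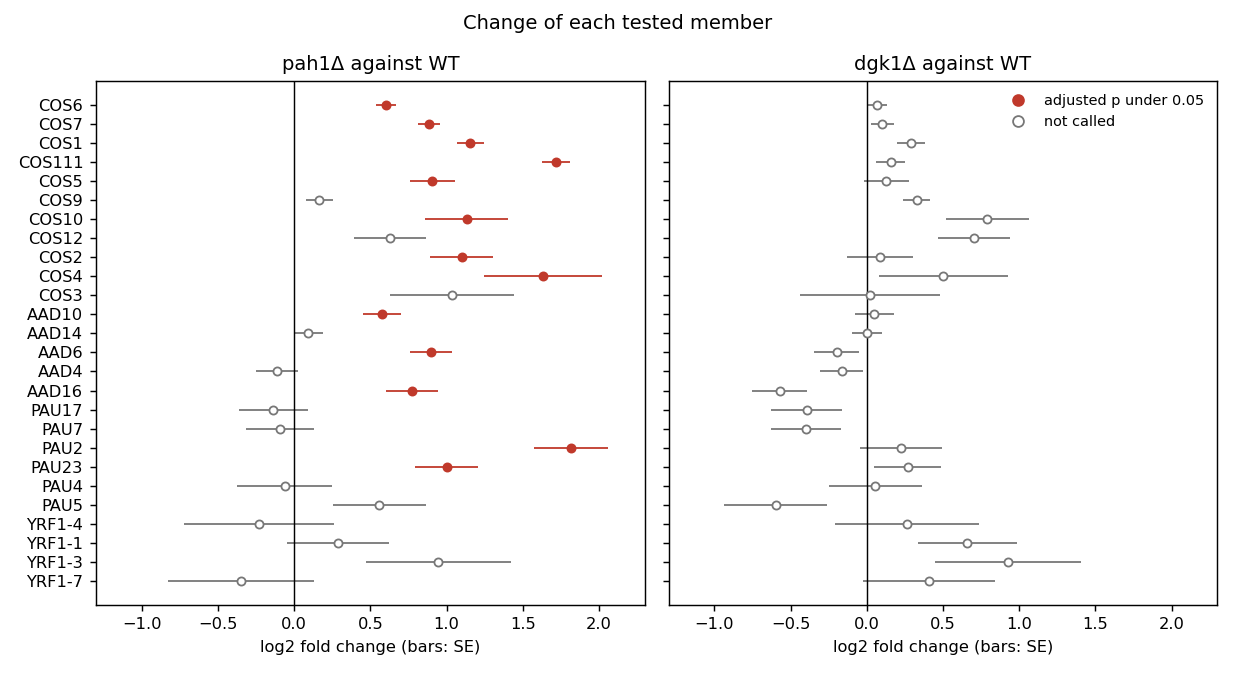
Log2 fold change of the 26 tested genes (x axis; points are estimates, bars SE from edgeR) in pah1Δ and in dgk1Δ against WT, in the gene order of the plot of levels. Filled red points have an adjusted p under 0.05: 13 in pah1Δ and 0 in dgk1Δ.

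A family sum does not depend on which of its copies a read was assigned to, though discarded reads, or reads counted for several copies, would still alter it. The 11 COS genes other than COS111 together had 371, 364 and 359 CPM in WT, 631, 622 and 628 CPM in pah1Δ, and 402, 428 and 409 CPM in dgk1Δ. The pah1Δ sum was 1.72 times and the dgk1Δ sum 1.13 times that of WT, and the libraries of the 3 genotypes did not overlap in CPM. In raw counts, which are not scaled to depth, the COS sums of dgk1Δ and WT overlapped. Scaled to library size only, they did not. COS6 made up 44.0% of this sum in WT and 38.9% in pah1Δ.

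The PAU sum was 27.1, 18.3 and 22.6 CPM in WT and 32.3, 31.5 and 31.9 CPM in pah1Δ, without overlap, a ratio of 1.41. In raw counts, which are not scaled to depth, the PAU sums of WT and pah1Δ overlapped. Scaled to library size only, they did not. The AAD sum was 96.9, 83.2 and 85.5 CPM in WT and 118.2, 131.4 and 117.7 CPM in pah1Δ, a ratio of 1.38 without overlap. The PAU and AAD sums of dgk1Δ overlapped WT, with means of 20.4 and 82.1 CPM (n = 3). YRF1 sums were 6.96 ± 1.95 CPM in WT, 6.77 ± 1.64 in pah1Δ and 9.03 ± 2.11 in dgk1Δ, and all overlapped. No test was made of these sums, since the families were chosen with their results known.

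**Figure D3:**
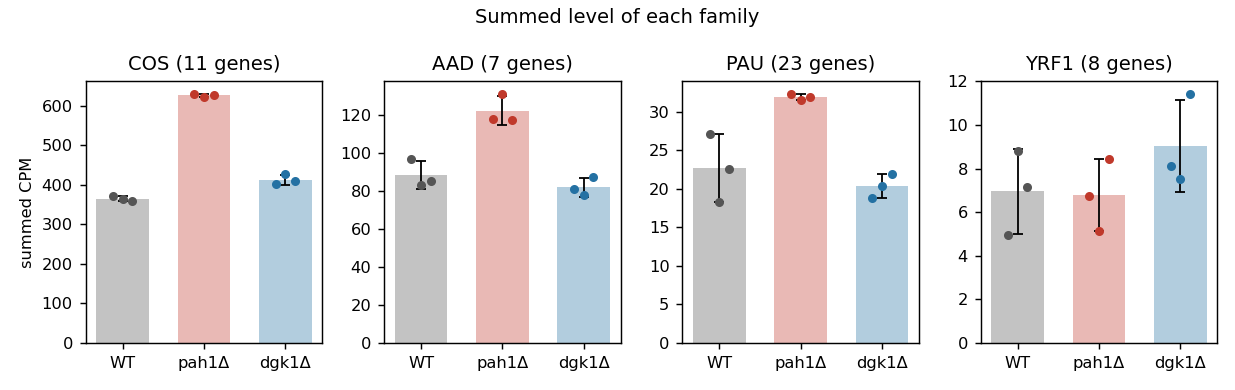
Summed CPM of each family in each genotype, with COS111 left out; each panel has its own y axis, starting at 0. Bars are means, error bars SD (n = 3) and points libraries. The COS sum lies near 365 CPM in WT, 627 in pah1Δ and 413 in dgk1Δ, while the YRF1 libraries overlap.

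AAD genes split into those that rose in pah1Δ and those with little change. AAD14 (YNL331C, chrXIV:16118-17248, minus strand), a whole gene of the family with unique windows throughout, had 22.7, 23.1 and 21.6 CPM in WT, 25.5, 23.8 and 22.7 CPM in pah1Δ and 22.2, 21.5 and 23.9 CPM in dgk1Δ. The groups overlapped, and its log2 fold change was 0.09 in pah1Δ (SE 0.10, edgeR adjusted p = 0.511). AAD4 had 17.7, 13.6 and 16.4 CPM in WT and 13.2, 16 and 15.1 CPM in pah1Δ, which also overlapped (-0.11, adjusted p = 0.593).

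AAD6 and AAD16 are neighbours on the minus strand of chromosome VI, and both rose in pah1Δ. AAD6 (YFL056C) had 13.9, 13.8 and 13.1 CPM in WT, 21.8, 28.6 and 25.7 CPM in pah1Δ and 13.4, 10.1 and 12.2 CPM in dgk1Δ. It rose by 0.90 in pah1Δ (SE 0.14, edgeR adjusted p = 0.000859). AAD16 (YFL057C) had 15.5, 10.2 and 12.5 CPM in WT and 18.8, 25.4 and 21.4 CPM in pah1Δ, a rise of 0.77 (SE 0.17, adjusted p = 0.00671). For both genes all pah1Δ libraries were above all WT libraries.

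RefSeq annotates 1 pseudogene across AAD6 and AAD16, from 14305 to 15431 on chromosome VI, and the span of 1127 bases is 84.5% identical to AAD14, of 1131 bases. The table splits it in 2 genes. The letters where they meet are shown from the RefSeq R64 genome, with the last 3 bases of AAD6, a stop codon, and the first 3 of AAD16 in capitals.
AAD6 end to AAD16 start (chrVI:14734-14822, minus strand): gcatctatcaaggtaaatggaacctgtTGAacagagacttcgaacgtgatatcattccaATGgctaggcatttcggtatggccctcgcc
The 2 genes are 29 bases apart. Per length, AAD16 held 1.16 to 1.23 times the FPKM of AAD6 in pah1Δ, 1.03 to 1.55 times in WT and 0.913 to 1.14 times in dgk1Δ. Whether their reads come from 1 transcript was not tested.

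AAD10, near the right end of chromosome X, had 26.9, 22.1 and 21.8 CPM in WT and 37.5, 37 and 31.4 CPM in pah1Δ. It rose by 0.58 without overlap (SE 0.12, edgeR adjusted p = 0.00577). AAD15, at the left end of chromosome XV, was too low to be tested, with 2, 4 and 1 counts in WT, 15, 6 and 14 in pah1Δ and 4, 5 and 4 in dgk1Δ. AAD3 had 1 count in all 9 libraries together.

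PAU genes fell into those far from an end and those near one. The 5 PAU genes 53.2 to 222.7 kb from an end held 79.6% of all PAU counts, had totals of 203 to 463 counts over the 9 libraries and were all tested. Of the 18 within 30 kb, PAU4 alone was tested, with 324 counts, and the median total was 4.5. Uniqueness moved with position: the 5 distant genes had 89.3% to 100% unique windows, and 8 of the 18 near an end had over 50%. Those 8 had totals of 1 to 324 counts, with a median of 11.5. PAU3, with 84.1% unique windows, had 1 count in all. 

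**Figure D4:**
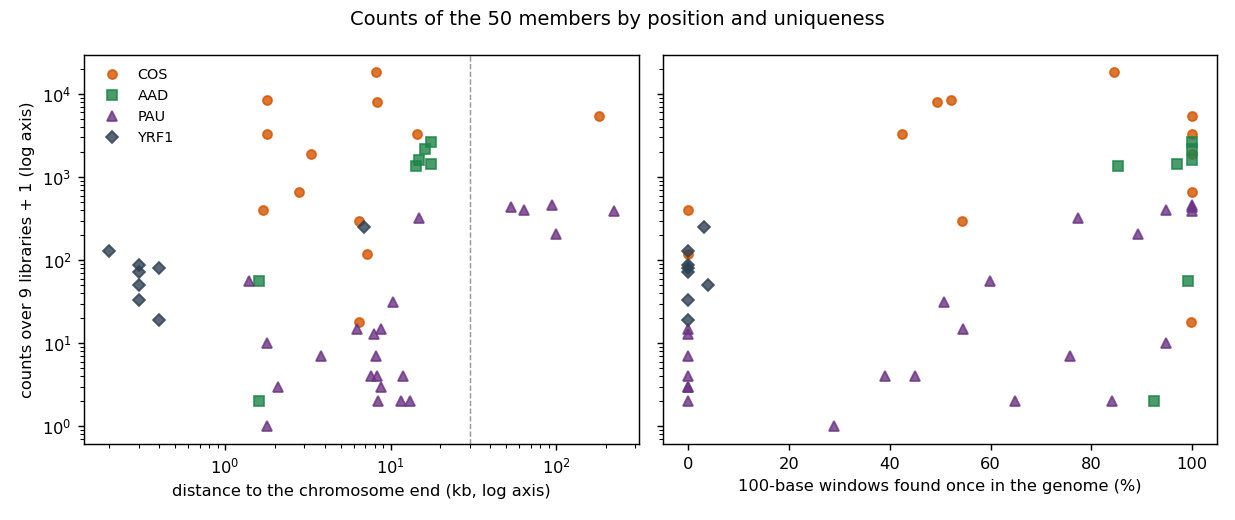
Total counts over the 9 libraries plus 1 (y axis, log scale) of the 50 genes against distance from the chromosome end (left, kb, log scale, dashed line at 30 kb) and against the percentage of 100-base windows found once in the genome (right). Marker shape and colour give the family. The 5 PAU genes beyond the line have 203 to 463 counts, and PAU genes inside it 0 to 324.

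PAU2 (YEL049W, chrV:63728-64090, plus strand), with 94.7% unique windows, rose in pah1Δ. It had 2.98, 1.66 and 1.86 CPM in WT, 7.75, 7.42 and 8.15 CPM in pah1Δ and 2.28, 3.13 and 2.25 CPM in dgk1Δ. Each pah1Δ library was above all libraries of WT and dgk1Δ. The rise against WT was 1.81 (SE 0.24, edgeR adjusted p = 0.000313), a ratio of means of 3.58, and 2.14 on the log2 scale without WT replicate 1. The promoter of PAU2 is shown from 250 bases before to 50 after the gene start, from the RefSeq R64 genome. Capitals mark CCCCT and TATACGA, the complement of TCGTATA, the core of the sterol response element bound by Upc2 and Ecm22.
PAU2 (chrV:63478-63777, plus strand): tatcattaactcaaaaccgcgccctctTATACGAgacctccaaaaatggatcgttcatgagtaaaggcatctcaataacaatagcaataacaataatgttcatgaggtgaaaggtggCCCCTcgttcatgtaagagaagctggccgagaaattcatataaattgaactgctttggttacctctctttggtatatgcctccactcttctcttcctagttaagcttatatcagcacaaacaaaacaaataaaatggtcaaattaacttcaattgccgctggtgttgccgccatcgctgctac
Of the 23 PAU promoters, that of PAU2 alone held TCGTATA on either strand (4.3%, against 4.1% of 6001 promoters of all genes). It was also in 1 COS window and 3 YRF1 windows.

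PAU23 (YLR037C, chrXII:222685-223059, minus strand), also named DAN2, has unique windows throughout. It had 3.15, 3.42 and 2.19 CPM in WT and 5.7, 6.29 and 5.69 CPM in pah1Δ, without overlap, and rose by 1.00 (SE 0.21, edgeR adjusted p = 0.00489). PAU5 had 2.9, 1.56 and 1.54 CPM in WT and 2.98, 3.09 and 2.94 CPM in pah1Δ (0.56, adjusted p = 0.2), and without WT replicate 1 it passed (0.95, adjusted p = 0.025). PAU17, the most abundant PAU gene by CPM, was at 6.47, 4.67 and 5.16 CPM in WT and 6.13, 4.54 and 4.17 CPM in pah1Δ, which overlapped. PAU17, PAU7 and PAU4 had log2 fold changes of -0.14, -0.09 and -0.06 and were not called.

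YRF1 genes were not called in any comparison. The 4 tested had log2 fold changes from -0.35 to 0.95 in pah1Δ. None had an unadjusted edgeR p under 0.05, and DESeq2 and limma called 0. YRF1-4, the most abundant, had 1.28, 3.11 and 3.62 CPM in WT, 2.64, 0.618 and 3.32 CPM in pah1Δ and 3.17, 2.9 and 3.37 CPM in dgk1Δ. WT replicate 1 and pah1Δ replicate 2 were its lowest libraries, and the groups overlapped. Every YRF1 gene overlaps small annotated reading frames, YRF1-4 also BSC3 and YLR464W, and the strand of reads is not known.

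In dgk1Δ against WT none of the 26 genes was called by edgeR, DESeq2 or limma; 4 were higher and 1 lower at an unadjusted edgeR p under 0.05. Over all genes 1.92% were called at an adjusted p under 0.05, 1.64% higher and 0.276% lower. The share of all genes at the unadjusted threshold was not counted, so the 4 and 1 have no background beside them. This contrast also decided that PAU15 was left out, so the counts are a description. COS10 had the largest change among genes with a mean of at least 10 CPM, 0.79 (SE 0.27, edgeR adjusted p = 0.344), and 0.47 without WT replicate 1 (adjusted p = 0.263). The dgk1Δ libraries lay above those of WT for COS10, COS12 (0.70), COS9 (0.33) and COS1 (0.29), and also for YRF1-1 (0.66). Groups do not overlap in this direction in 9.15% of all genes, and in 7.19% in the other. AAD16, at 9.52, 8.31 and 7.97 CPM, was below all WT libraries (-0.57, adjusted p = 0.274). COS4 was called in dgk1Δ without WT replicate 1 (1.45, adjusted p = 0.0284), against 0.50 with it (adjusted p = 0.832).

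In pah1Δ against dgk1Δ, a comparison that shares its pah1Δ libraries with the one above, 13 of 26 genes were higher and 0 lower, against 14.2% and 10.8% of all genes. The pah1Δ libraries lay above those of dgk1Δ in 14 of the 26 and below in 2, against 25.2% and 23.4% of all genes. The genes called were 7 COS genes, PAU2, PAU5, PAU23, AAD6, AAD10 and AAD16. COS111 (1.56), COS7 (0.78), COS1 (0.87) and COS6 (0.54) had the smallest adjusted p of the COS genes, from 1.4e-06 to 0.000159 by edgeR. COS10 was not called between the deletion strains (0.34, SE 0.26, adjusted p = 0.373). AAD16 differed by 1.34 (SE 0.18, adjusted p = 0.000273) and AAD6 by 1.10 (adjusted p = 0.00023). PAU5 had 0.892, 1.57 and 1.53 CPM in dgk1Δ, below its pah1Δ libraries (1.16, adjusted p = 0.0224), but the call ended without any 1 of the pah1Δ or dgk1Δ libraries (adjusted p up to 0.0907). The same holds for PAU23 (0.73, adjusted p = 0.0227, up to 0.105) and COS4 (1.13, adjusted p = 0.0453, up to 0.135). AAD10 lost its call without pah1Δ replicate 1, dgk1Δ replicate 1 or dgk1Δ replicate 2 (0.53, adjusted p = 0.0102, up to 0.0501).

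Members at the same chromosome end were called alike in pah1Δ at some ends and not at others. Genes of other kinds within 30 kb of an end were higher in 77 and lower in 31 of 312 tested, with a median of 0.15, and genes farther away in 936 and 744 of 5818, with a median of -0.01. The left end of chromosome VI holds COS4, AAD16 and AAD6, all of which rose, and 6 of the 12 other genes tested there rose and 0 fell. On the left end of chromosome XIV, COS1 rose while AAD14 did not pass, and 4 of 10 other genes rose. On the left end of chromosome IV, COS7 rose and AAD4 did not pass, with 3 of 10 others higher and 1 lower. At the right end of chromosome X, COS5 and AAD10 both rose, with 2 of 6 others higher and 1 lower. On the left end of chromosome XI, where COS9 did not pass, 1 of 7 others was higher and 1 lower.

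AGGGG, searched on both strands from 250 bases before to 50 after the gene start, occurred in 10 of 12 COS promoters (83.3%), 4 of 23 PAU promoters (17.4%) and 0 of 8 YRF1 promoters, against 21.6% of 6001 promoters. It was in 0 of the 5 AAD promoters that the reference lists. AAD6 and AAD16, which both rose in pah1Δ, are not among these 5 and were not searched. Of the 9 COS genes with the word before the start, COS111 among them, 8 were tested and 7 rose in pah1Δ. Of all 11 tested COS genes 8 rose, and of all genes 16.6%. The share that rose among all genes with the word was not counted, and a link between the rise and the word was not tested. COS10 and AAD10 rose without it in this window, and in COS9 it lies 36 bases after the start. The copies share their promoters by descent, so their matches are not independent. PAU2 and PAU23, the PAU genes that rose, both held it, as did PAU21 and PAU22, which had 6 and 12 counts in all. The Yap1 core TTACTAA or TTAGTAA was in no member window that was searched, against 7.4% of all promoters. The windows of AAD6 and AAD16 were not searched for it either.

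Other gene groups near the same ends or of related function were examined as context. Over all 6150 genes tested, 16.6% rose and 12.6% fell in pah1Δ, and small lists can lie above or below these shares by few genes. Of 30 tested genes of other subtelomeric repeated families, 14 rose in pah1Δ and 0 fell, with a median of 0.83. SNO4 and HSP33, relatives of the chaperone and glyoxalase gene HSP31, rose by 1.55 and 1.93 (edgeR adjusted p = 9.2e-05 and 9.31e-05), and the enolase-related ERR3 by 1.23. Several of these are near-identical copies too. Of the 10 DUP240 genes, a family of membrane protein genes related to COS, 3 rose: PRM8 (0.89), UIP3 (0.61) and YHL044W (1.42). Of 8 other aldo-keto reductases and alcohol enzymes 6 rose, among them GCY1 (1.56), GRE3 (1.28) and YPL088W (1.26), with a median of 1.09.

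The list for telomere silencing held 16 genes, and whether each of them promotes silencing was not examined. Of these 16, 0 rose and 3 fell (18.8%) in pah1Δ by edgeR, where 12.6% of all genes fell. There were 1 higher and 4 lower at an unadjusted p under 0.05; DESeq2 called 0 higher and 4 lower and limma 1 higher and 2 lower. RAP1, which binds telomere repeats, fell by 0.58 (adjusted p = 0.000788), TBF1, which binds subtelomeric repeats, by 0.48, and the deacetylase gene SIR2 by 0.25 (adjusted p = 0.0319). SIR3 and SIR4, the other silencing subunits, had -0.13 (adjusted p = 0.488) and -0.07 (adjusted p = 0.792). Of 9 telomerase and capping genes edgeR and limma called 0 in pah1Δ; 2 were lower at an unadjusted edgeR p under 0.05 and by DESeq2. Of 7 general repressor genes edgeR and DESeq2 called 0; 1 was higher at an unadjusted p and by limma.

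Among cell wall and oxygen genes related to PAU, outside the PAU family itself, none was called higher in pah1Δ. Over all genes 16.6% rose and 12.6% fell. Of 5 tested cell wall relatives, TIP1 fell by 0.45 and TIR3 by 0.70, and 0 rose (1 at an unadjusted edgeR p under 0.05, 0 by DESeq2 and limma). DAN2 is not among these 5: it is counted above under its other name, PAU23, which rose by 1.00. Of 6 oxygen and sterol genes, HEM13, the haem synthesis gene, fell by 0.48, and 0 rose by any of these tools or at an unadjusted p. Lower genes of this list numbered 2 at an unadjusted edgeR p under 0.05 and by DESeq2, and 1 by limma. The lowest log2 fold change among the 6 was -0.55, in a gene that edgeR did not call. Of 12 genes of the Yap1 list, which covers the oxidative stress factor and its targets, 4 rose and 1 fell: GRE2 rose by 1.05 and OYE3 by 2.16, and the transporter gene ATR1 fell by 0.84.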

How the data were processed

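The authors deposited 1 table with whole-number read counts per gene and FPKM values, 1 column of each per library. Per the submitters' processing notes, HISAT2 2.2.1, HTSeq 0.6.1 and genome build R64 were used. No strand setting or treatment of reads with several matches is given there. FPKM served to compare levels per length and in the alternatives with limma. No column was left unused (0), and 4 empty lines were dropped.

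Counts were fitted in R 4.3.3 with edgeR 4.0.16: filterByExpr (6150 genes), TMM scaling, and 1 quasi-likelihood model over all 9 libraries (6 residual degrees of freedom, biological coefficient of variation 0.106). Calls were made at a Benjamini-Hochberg adjusted p under 0.05 over all genes. CPM is scaled by TMM. On simulated counts for pah1Δ against WT (6142 genes), 100% of the genes changed 2-fold and 88% of those changed 1.5-fold were recovered. The changed genes all had a mean CPM over 10, and the same spread was simulated for every gene and library. Only 12 of the 26 tested members had a mean CPM of at least 10, so recovery of the lower members was not tested. Within a genotype, chi-square per degree of freedom was 3.55 to 53.6, so no pair of libraries agreed within sampling noise. Intervals and floors cover counting error only.

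Of 51 family genes, 50 were in the RefSeq R64 annotation and 49 had the same coordinates. Uniqueness, identity, motifs and sequences came from that genome. Gene families, context lists and tests were chosen with earlier results of these data known. The rule for named genes took COS10 and AAD14, up to 6 members per family called in pah1Δ against WT and up to 4 against dgk1Δ by smallest adjusted p, the 3 largest changes per family in dgk1Δ (mean CPM of at least 10), the most abundant member, members at 0, up to 3 called members per context list, and SIR2, SIR3 and SIR4. Other members were named after their values were seen.

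The fit was repeated with RLE size factors, without TMM factors, without the filter or with a minimum mean CPM of 10, with a pair of groups at a time, with the replicate number as a block, after dropping each library in turn, with DESeq2 1.42.0, and limma 3.58.1 on log2(FPKM + 1) and log2(FPKM + 0.1). Chosen after seeing the data were removal of the length trend, leaving out COS111, and using only members with over 50% unique windows.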

Additional observations from a re-analysis of the deposited data

How the results depend on the processing

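The 13 calls in pah1Δ against WT were all kept under every alternative in which the gene was tested, and no result changed direction among the called ones. Their number ranged from 13 to 17 when 1 library was left out, and was 12 without COS111. It was 9 of 12 tested at a mean CPM of at least 10, and 10 of 18 tested with over 50% unique windows. In dgk1Δ against WT the count of higher members was 0 to 1 with 1 library left out (1 without WT replicate 1). In pah1Δ against dgk1Δ it was 9 to 14 with 1 library left out and 8 of 12 tested at a mean CPM of at least 10; with the length trend removed 1 member, COS9, was lower (-0.23, adjusted p = 0.0456). The COS sum with COS111 had a log2 ratio of 0.88 in pah1Δ against WT, 0.97 with library size only and 0.82 over members with over 50% unique windows. The cause of these shifts was not tested, except that fewer genes enter under the stricter filter and the uniqueness limit. Counts of lower members stayed at 0 with each library left out. Among single members, 25 of 1433 alternative values lost a call and 10 gained one. The 1433 include members without a call, which cannot lose one. All 25 losses were in pah1Δ against dgk1Δ: COS4 in 8 of 18 alternatives, PAU5 and PAU23 each in 7 of 18, and AAD10 in 3 of 19. The replicate numbers in the labels gave no sign of pairing the libraries. Correlations of same-numbered libraries ranged from -0.507 to 0.359, and those of different-numbered libraries from -0.490 to 0.598. A shared batch by number was not tested. A fit with the replicate number as a block gave 13 higher members in pah1Δ against WT, 0 in dgk1Δ, and 10 in pah1Δ against dgk1Δ, where COS4, PAU5 and PAU23 were not called. Of the 8 YRF1 genes 4, and of the 18 PAU genes within 30 kb of an end 17, had too few reads to test; the cause was not tested.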
